A study of Mus musculus with 6 samples.

Results

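A set of 207 strong Argonaute (Ago) footprints, 3.30% of the 6270 in the deposited table, was held by some but not all of 6 macrophage libraries. They were chosen by 2 measures of the table, the Ago occupancy of each genotype and the number of libraries that held the footprint. Each had a mean of knockout (KO) and wild-type (WT) occupancy of 2 or more, was present in at least 1 KO and at least 2 WT libraries, and was absent from at least 1 of the 6. These 207 footprints are called partly held below. They lay on 163 genes, and 5 of them overlapped no annotated gene on their strand. Of all 344 footprints with a mean occupancy of 2 or more, another 128 were held by all 6 libraries (fully held below) and 9 had other library counts. Because occupancy and library counts chose the footprints, both are given as descriptions with no test.

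The study mapped Ago binding in bone-marrow-derived macrophages by HITS-CLIP, in which RNA is cross-linked to Ago, recovered with an antibody and sequenced. The KO group was 3 libraries from Apobec1-/- mice and the WT group 3 libraries from littermates that carry the gene, all on the C57BL/6 strain and aged 6 to 12 weeks. All cells were matured in M-CSF and precipitated with the Ago antibody 2A8. APOBEC1 deaminates cytidine in mRNA to uridine. The comparison asked whether Ago binding differs in macrophages that lack this enzyme. The deleted stretch of the gene is not stated in the labels. All 3 Apobec1 footprints, in its 3′ UTR, had low occupancy in both genotypes, at most 0.174 in KO and 0.181 in WT, which does not check the genotype. The macrophage label was checked against marker genes. Footprints were present on 9 of 12 macrophage marker symbols, including Emr1 (F4/80), Csf1r and Itgam (Cd11b). The 12 symbols hold both Emr1 and Adgre1, which name the same gene. Markers of T and B cells, neutrophils, fibroblasts, dendritic cells and osteoclasts had a footprint on 0 of 22. On longer lists of the same cell types, 0 of 12 T and B cell, 0 of 9 neutrophil and 0 of 8 fibroblast and stroma genes had a footprint, while 1 of 9 dendritic cell and osteoclast genes had 2.

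Occupancy is the authors' ratio of footprint signal to the RNA-Seq expression of the transcript, with 1 combined value per genotype. It has no replicate spread, so no difference between KO and WT below has a replicate check. The table holds no read counts, and library depth is therefore unknown. In these bulk samples, fewer cells of a type and less RNA per cell cannot be told apart. Coordinates are of mouse build mm9 and are counted from 1.

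Ago proteins carry microRNAs (miRNAs), which pair through their seed, bases 2 to 8, with sites that lie mostly in 3′ UTRs. The bound Ago recruits TNRC6 proteins and deadenylases, and the mRNA is then translated less or degraded. Macrophages are known for miR-155, miR-146, miR-223 and the let-7, miR-15/16 and miR-23/27/24 families, among others.

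The sequences of the sites are shown first, as matches by letters to the seeds of listed miRNAs. No miRNA levels of these cells were used, so a match does not show that Ago read it. A 7-nt match to the seed of 1 of 28 miRNA families was present in 51 of the 207. The family found most often was miR-27, in 9 footprints. Its mature sequence and those of 5 other families described below are given here with the seed in capitals, from RefSeq (build GRCm38.p6).
mmu-miR-27a-3p: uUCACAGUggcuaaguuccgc
mmu-let-7a-5p: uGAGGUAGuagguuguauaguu
mmu-miR-16-5p: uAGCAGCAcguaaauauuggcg
mmu-miR-30a-5p: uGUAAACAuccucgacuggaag
mmu-miR-144-3p: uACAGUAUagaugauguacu
mmu-miR-128-3p: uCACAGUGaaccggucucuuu

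All 9 miR-27 sites are printed, to show what surrounds the same 7 letters on different genes. Each line gives 30 bases of the mm9 genome on the strand of the gene, with the match in capitals, 22 bases before it and the base opposite base 1 of the miRNA after it. The sites lay on Jmjd1c (chr10:66718625-66718654, +), Ccl4 (chr11:83478112-83478141, +), Appbp2 (chr11:85005091-85005120, −), Tnpo1 (chr13:99612968-99612997, −), Ell2 (chr13:75909517-75909546, +), Runx1 (chr16:92605794-92605823, −), Plk2 (chr13:111190838-111190867, +), Atp2b1 (chr10:98486757-98486786, +) and Aff4 (chr11:53229649-53229678, +).
Jmjd1c: ttttcactacattgagacagttACTGTGAg
Ccl4: tttctctgctattgtggatatgACTGTGAa
Appbp2: tcccagattccggggaattcatACTGTGAa
Tnpo1: tcccatgtgtattttcttacatACTGTGAa
Ell2: tagatatatttaaccataacatACTGTGAc
Runx1: ccaggaagaatcccggagggaaACTGTGAa
Plk2: cagagcagcttttggctgcttaACTGTGAa
Atp2b1: tagttcagtgatgtcttagtgaACTGTGAg
Aff4: gtttagtatgcattatttcaaaACTGTGAa

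Further sites are shown because they lie in footprints that the results below turn on, those with the highest occupancy, on genes of the small RNA machinery or, for Rnf111, among the lowest ratios. They are the let-7 site of Hmga2 (chr10:119800043-119800072, −), the miR-15/16 sites of Tet3 (chr6:83315238-83315267, −) and Rnf111 (chr9:70273980-70274009, −), the miR-128 site of Eif2c2 (chr15:72934338-72934367, −), the miR-144 site of Tnrc6a (chr7:130337695-130337724, +) and the miR-30 site of Tnrc6c (chr11:117623179-117623208, +). The Tnrc6a and Tnrc6c matches lay at the edges of their footprints of 70 and 69 nt, centred 32 and −31 nt from the midpoint. The bases printed before the Tnrc6c match lie outside its footprint.
Hmga2 let-7: caataatccccactcctcaataCTACCTCt
Tet3 miR-15/16: cagttctatatcccccatccctTGCTGCTg
Rnf111 miR-15/16: ctttattccctaacccaggtttTGCTGCTg
Eif2c2 miR-128: atcatgacatccatccctttacCACTGTGt
Tnrc6a miR-144: aagccgagatcagtaactatgcATACTGTa
Tnrc6c miR-30: ctggtgacaattcatgtgtaaaTGTTTACt

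The partly held footprints had a median occupancy of 2.68 in KO (range 0.508 to 8.79) and 2.64 in WT (range 0.374 to 10.4). They were few but held 13.4% of the summed occupancy of the table in KO and 13.6% in WT, against 17.5% in KO and 16.0% in WT for the fully held strong footprints. A mean occupancy under 2.5 was found for 107 of them and one of 4 or more for 31. Among the nearest above the threshold were footprints of Ftsj3 (mean 2.01; 0.876 in KO and 3.14 in WT) and Dtx4 (mean 2.02; 1.25 in KO and 2.78 in WT). Just below it lay Etnk1 (mean 2.00; 1.73 in KO and 2.27 in WT), Qk (mean 1.99; 1.72 in KO and 2.27 in WT) and Plekhm3 (mean 1.99; 1.07 in KO and 2.91 in WT). Values on either side of the threshold thus nearly touched.

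The median log2 ratio of KO over WT was 0.01 over the 207 footprints (95% interval of the median over footprints, −0.12 to 0.18), with 106 higher and 101 lower in KO. The same median was 0.12 over the fully held strong footprints and −0.04 over the table. In KO, 31 of the 207 (15.0%) were at least 2-fold higher, against 18.9% of all 6270 footprints, and 33 (15.9%) were at least 2-fold lower, against 24.2%. The other 143 lay within 2-fold. Of the fully held strong footprints, 8.59% were at least 2-fold higher and 3.13% at least 2-fold lower. Nothing is read from the median, its interval or these shares, since the rule used both occupancies and both library counts. The interval is a spread over chosen footprints and not a test of KO against WT.

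**Figure D1:**
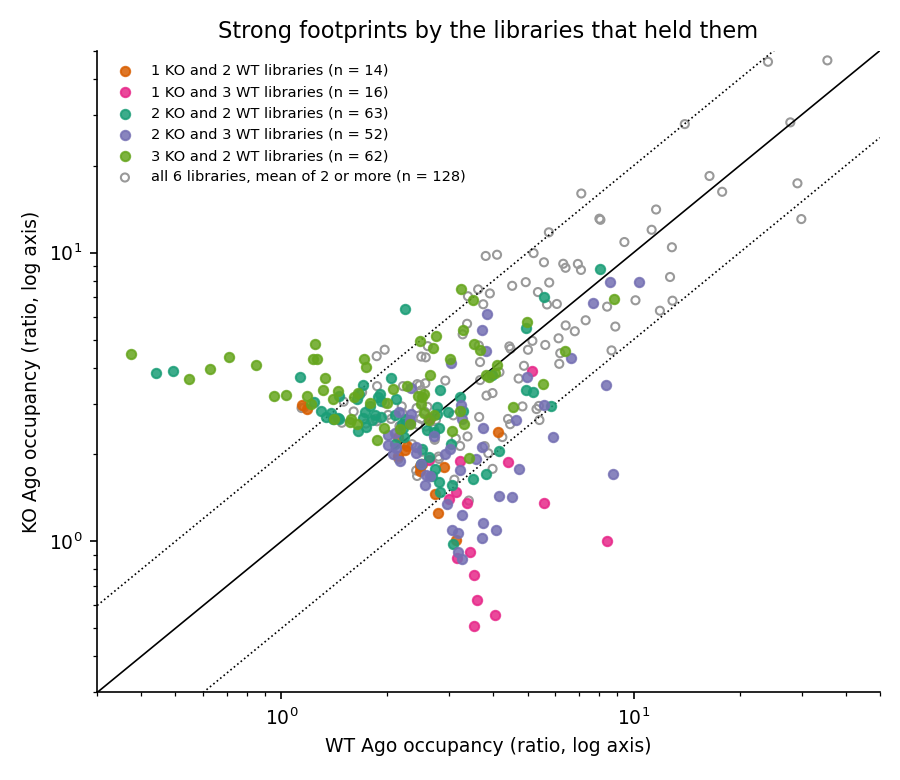
Ago occupancy of strong footprints in KO (vertical, log axis) and WT (horizontal, log axis), each a ratio to transcript expression. Filled points are the 207 partly held footprints coloured by how many KO and WT libraries held them, and open points are the 128 fully held ones. The solid line marks equal values and the dotted lines 2-fold. KO values of the filled points span 0.508 to 8.79 and WT values 0.374 to 10.4.

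The number of libraries moved with the ratio. Footprints held by 3 KO and 2 WT libraries (62) had a median occupancy of 3.36 in KO and 2.29 in WT, a median log2 ratio of 0.68, with 19 at least 2-fold higher and 0 at least 2-fold lower. Those held by 2 KO and 2 WT libraries (63) had 2.75 in KO and 2.23 in WT, a median log2 ratio of 0.25, with 10 higher and 4 lower by 2-fold. Where 2 KO and 3 WT libraries held the footprint (52), the medians were 2.12 in KO and 3.22 in WT, at −0.53, with 0 higher and 15 lower by 2-fold. With 1 KO and 3 WT libraries (16) they were 1.36 in KO and 3.48 in WT, at −1.58, and 12 were at least 2-fold lower. The last 14, in 1 KO and 2 WT libraries, had 1.91 in KO and 2.48 in WT, at −0.44. The genotype with fewer libraries had the lower median in each of these patterns with unequal counts. Of the weaker footprints under the same library rule, those in 1 KO and 2 WT libraries went the other way, with medians of 0.372 in KO and 0.337 in WT. The order of their other patterns was alike, with median log2 ratios of 0.97 (3 KO and 2 WT libraries), 0.64 (2 and 2), −0.44 (2 and 3) and −1.20 (1 and 3). Occupancy and library count come from the same reads, so the order of the patterns is a description of the table.

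**Figure D2:**
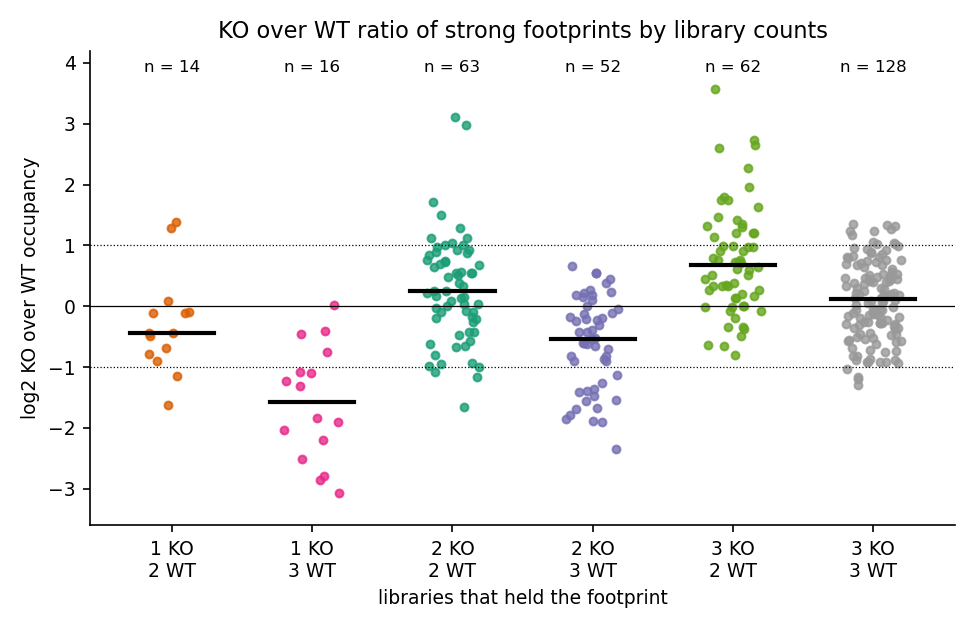
Log2 ratio of KO over WT occupancy (vertical) for strong footprints, by the number of KO and WT libraries that held them (horizontal). Points are footprints, bars are medians, and dotted lines mark 2-fold. Medians run from −1.58 with 1 KO and 3 WT libraries to 0.68 with 3 KO and 2 WT libraries, and the fully held footprints at the right have a median of 0.12.

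Most of these footprints were short of 1 or 2 libraries. Of the 207, 114 were held by 5 libraries, 79 by 4 and 14 by 3. In KO, 62 were held by 3 libraries, 115 by 2 and 30 by 1, and in WT, 68 were held by 3 and 139 by 2. The rule asks for 2 WT libraries but only 1 KO library, so these counts are not a comparison of the genotypes. The highest mean occupancy in each pattern belonged to Hipk3, a nuclear kinase (3 KO and 2 WT libraries), Calcrl, the receptor subunit for adrenomedullin and CGRP (2 and 2), Skil (2 and 3), Hook3, which links cargo to dynein (1 and 3), and Apbb1ip, a Rap1 effector in integrin activation (1 and 2).

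The highest occupancies were spread over signalling, transcription and RNA control. Skil, which encodes the SMAD corepressor SnoN, had 7.94 in KO and 10.4 in WT at chr3:31019444-31019513 (+). Calcrl had 8.79 in KO and 8.01 in WT (chr2:84172054-84172121, −). Hmga2, an architectural chromatin protein and a textbook let-7 target, had 7.91 in KO and 8.58 in WT (chr10:119800021-119800083, −). The let-7 match printed above lay 5 nt from the midpoint of this footprint. Its other partly held footprint had 3.76 in KO and 3.97 in WT (−0.08). In the leading footprints of these 3 genes the genotypes stood close together, with log2 ratios of −0.39, 0.13 and −0.12.

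Hipk3 had 6.92 in KO and 8.79 in WT (chr2:104269646-104269708, −). The cell adhesion protein Pcdh7 had 6.69 in KO and 7.69 in WT (chr5:58119424-58119489, +). The Notch pathway ubiquitin ligase gene Dtx4 had 7.02 in KO and 5.56 in WT (chr19:12542576-12542638, −). Papd7, a non-canonical poly(A) polymerase, had 5.74 in KO and 4.99 in WT (chr13:69638544-69638609, −), and Rlim, a RING ubiquitin ligase, had 4.56 in KO and 6.40 in WT (chrX:101155242-101155309, −). These also lay within 2-fold. The exceptions among the 12 highest were Nfya, a subunit of the CCAAT-binding factor NF-Y, with 3.48 in KO and 8.33 in WT (chr17:48527164-48527234, −), Tet3 with 1.71 in KO and 8.72 in WT (chr6:83315208-83315272, −) and 2010111I01Rik with 7.47 in KO and 3.23 in WT (chr13:63400758-63400820, +). The footprint of Eif2c2 completes the 12 and is described with its pathway.

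The footprints furthest apart in favour of KO had low WT values. Cdk14, a cyclin-dependent kinase, had 4.46 in KO and 0.374 in WT (log2 ratio 3.57; chr5:4804458-4804537, −), in 3 KO and 2 WT libraries. Plagl2, a zinc finger transcription factor, had 3.89 in KO and 0.493 in WT (2.98). The exportin Xpo7 had 3.66 in KO and 0.547 in WT (2.74). Ythdf3, a reader of N6-methyladenosine, had 3.96 in KO and 0.628 in WT (2.65). A footprint on chromosome 17 outside any gene had 3.82 in KO and 0.439 in WT (3.12). Each of the 5 was nevertheless held by 2 WT libraries. The WT values of the Plagl2 and the chromosome 17 footprints were also shared exactly with other footprints, 2 and 1 of them.

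At the other end stood footprints held by 1 KO library. Hook3 had 1.00 in KO and 8.42 in WT (−3.07; chr8:27134369-27134439, −), and its KO value was shared exactly by 4 other footprints. Lrrc40, a leucine-rich repeat protein, had 0.557 in KO and 4.03 in WT (−2.85). Rnf111, known as Arkadia, had 0.628 in KO and 3.60 in WT (−2.52). These 3 were held by 1 KO and 3 WT libraries. The Tet3 footprint named above (−2.35) differed from them in having 2 KO libraries.

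Exact repeats of a value limit these ratios. A KO value shared with at least 1 other footprint was found for 28 of the 207 (13.5%) and a shared WT value for 11 (5.31%), 37 footprints in all. Among fully held strong footprints the counts were 2 in KO and 0 in WT. Over the whole table repeats were more frequent, with 31.7% of KO and 18.6% of WT values. The value 2.66 in KO stood on Aff4, Rreb1 and a footprint of the X chromosome, and 1.36 in KO on Fnbp1l and Tnrc6a. Among others, Runx1, Rnd3, Eif4a2, Ski and the leading Lnpep footprint had a shared KO value, and Cfl2 a shared WT value. Shared values are not marked at every ratio given below. The origin of the repeats is not stated in any source used here.

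Genes of the small RNA machinery carried 7 of the partly held footprints. Of a list of 33 such genes, 14 had any footprint (48 footprints), and 4 had a partly held one. Eif2c2, which encodes the slicing protein Ago2, had 4 of them among 12 footprints. The strongest had 4.31 in KO and 6.63 in WT (chr15:72934300-72934362, −), and it held the miR-128 match. The next had 3.45 in KO and 2.27 in WT, then 3.34 in KO and 1.31 in WT, and last 2.10 in KO and 2.51 in WT. Along the Ago2 3′ UTR these 4 alternated between lower and higher in KO, with 2 of the 4 higher. All 12 footprints of the gene, 7 higher and 5 lower in KO, did not alternate.

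The TNRC6 proteins, Ago's partners in silencing, were split. Tnrc6a had 1.36 in KO and 5.58 in WT (−2.04; chr7:130337654-130337723, +), in 1 KO and 3 WT libraries. Tnrc6c had 4.82 in KO and 3.52 in WT (0.45; chr11:117623201-117623269, +), in 3 KO and 2 WT libraries. Pan3, a subunit of a deadenylase, had 2.83 in KO and 3.22 in WT (−0.19). Over the 7 footprints the median log2 ratio was −0.19, with 1 at least 2-fold higher and 1 at least 2-fold lower, and over the 48 footprints of the list it was 0.22.

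RNA-binding proteins and RNA helicases had 13 partly held footprints on 10 genes, 7 higher and 6 lower in KO. Zfp36l1, which promotes decay of AU-rich mRNAs, had 4.10 in KO and 0.849 in WT (2.27). The hnRNP gene Hnrnpa2b1 had 4.08 in KO and 4.10 in WT at its stronger partly held footprint (−0.01). Its other partly held one had 1.07 in KO and 3.17 in WT (−1.56). Qk, a regulator of splicing, had 1.01 in KO and 3.13 in WT (−1.63). The splicing regulator Mbnl1 had 2.46 in KO and 1.95 in WT (0.34). Eif4a2, a helicase of the translation initiation complex, had 0.918 in KO and 3.18 in WT (−1.79). Both partly held footprints of Ddx17, an RNA helicase that takes part in miRNA processing, lay in an intron of the annotation used. They were the only 2 intronic ones of the set, with 3.27 and 2.82 in KO against 1.65 and 1.30 in WT.

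Genes of SMAD signalling were the corepressors Skil and Ski and Rnf111, the ligase known to mark both for degradation. Besides its leading footprint, Skil had one of 2.75 in KO and 1.85 in WT and one of 2.70 in KO and 1.34 in WT. Ski had 1.78 in KO and 2.73 in WT (−0.62), and it held a miR-15/16 match, as did the Rnf111 footprint. The 5 partly held footprints of these 3 genes had 2 higher and 3 lower values in KO.

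Transcription factors and other DNA-binding regulators formed the group with most footprints, 19 on 12 genes, of which 12 were higher and 7 lower in KO. Plagl2 had 4 of them, and in each KO was at least 2-fold above WT. They had 6.36, 3.89, 3.03 and 3.00 in KO against 2.24, 0.493, 1.24 and 1.22 in WT. Of all 11 footprints of Plagl2, 9 were higher and 2 lower in KO, and their sums had a log2 ratio of 1.13. Rreb1, a zinc finger protein of RAS signalling, also had 4 partly held footprints, with 2.17 to 2.66 in KO and 2.11 to 2.71 in WT. Of these, 2 overlapped each other. Plagl2 and Rreb1 gave 4 and 3 of the 12 higher values. Runx1, a regulator of blood cell formation, had 1.10 in KO and 4.06 in WT (−1.89). Mitf, which drives lysosomal genes, had 0.767 in KO and 3.52 in WT (−2.19). Rxra, the partner of nuclear receptors, had 2.56 in KO and 1.64 in WT (0.64). The repressor Bcl6 had 1.57 in KO and 3.05 in WT (−0.95).

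Chromatin and elongation factors had 14 footprints on 10 genes, 8 higher and 6 lower in KO. Tet3, which oxidises 5-methylcytosine, went both ways within a single 3′ UTR. Its strongest footprint had 1.71 in KO and 8.72 in WT. The other partly held ones of Tet3 had 3.72 and 3.19 in KO against 1.13 and 0.951 in WT. The histone methyltransferase gene Whsc1 had 2.98 in KO and 5.58 in WT at its stronger partly held footprint. Its other partly held one had 2.98 in KO and 1.14 in WT. Jmjd1c, of a histone demethylase family, had 5.41 in KO and 3.72 in WT (0.54), with a miR-27 match. Setd5 had 2.11 in both genotypes.

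Surface receptors and chemokines had 13 footprints on 12 genes, 9 higher and 4 lower in KO. The IL-7 receptor gene Il7r had 4.56 in KO and 3.80 in WT (0.26). The scavenger receptor Cd36 had 3.78 in KO and 2.64 in WT (0.52). Fcgr1, the high-affinity receptor for IgG, had 2.59 in KO and 1.57 in WT (0.72). The chemokine genes Ccl4 and Cxcl16 had 4.14 and 3.31 in KO against 3.03 and 1.45 in WT. Tlr4, the lipopolysaccharide receptor, had 1.03 in KO and 3.71 in WT (−1.85), with a KO value that 2 other footprints shared. Gp49a had 1.43 in KO and 4.16 in WT (−1.54), but it has a close paralog, and the authors' handling of reads that match both is not stated in any source used here. Of the macrophage markers, Fcgr1 alone had a partly held footprint.

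Among small GTPases and their regulators, 15 footprints on 13 genes had 6 higher and 9 lower values in KO. Rap2b had 3.34 in KO and 4.95 in WT (−0.57). The Rab3 regulator Rab3gap1 had 3.52 in KO and 5.51 in WT (−0.65). The atypical small GTPase Rnd3 had 0.920 in KO and 3.43 in WT (−1.90). Rab1, of early secretory traffic and reported elsewhere as edited by APOBEC1, had 3.10 in KO and 1.40 in WT (1.14). The other 5 footprints of Rab1 were all lower in KO, with log2 ratios from −2.70 to −0.14. Summed over its 6 footprints, Rab1 had a log2 ratio of 0.25. Cd36 was the only other reported editing target of a list of 30 with a partly held footprint, and 23 of the 30 had a footprint of some kind. A separate list of 55 small GTPase and actin genes had 39 genes with footprints and 0 with a partly held one.

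Cytoskeletal and trafficking genes had 16 footprints on 13 genes, 7 higher and 9 lower in KO. The actin crosslinker Macf1 had 5.40 in KO and 3.27 in WT (0.72). The cofilin gene Cfl2 had 4.27 in KO and 1.23 in WT (1.79). Of 2 related substrates of protein kinase C, Marcks had 2.77 in KO and 2.76 in WT (0.01) and Marcksl1 had 2.31 in KO and 5.91 in WT (−1.36). Fnbp1l, which shapes membranes for endocytosis, had 1.36 in KO and 3.37 in WT (−1.31). Snx30, a sorting nexin, had 1.96 in KO and 2.63 in WT (−0.43).

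Kinases, phosphatases and lipid kinase subunits had 12 footprints on 10 genes, 7 higher and 5 lower in KO, of which only that of Cdk14 passed 2-fold. The survival kinase Pim1 had 5.47 in KO and 4.95 in WT (0.14). Dusp1, the phosphatase of MAP kinases, had 3.70 in KO and 4.98 in WT (−0.43). Pik3r1, the regulatory subunit of PI3 kinase, had 2.49 in KO and 1.74 in WT (0.51). Cell cycle and cell death genes had 7 footprints on 6 genes, 5 higher and 2 lower in KO. The lower ones were cyclin D1 (Ccnd1) with 2.80 in KO and 2.98 in WT (−0.09) and the BH3-only protein gene Bcl2l11 with 2.03 in KO and 2.41 in WT (−0.25). Cflar, an inhibitor of caspase-8, had 4.34 in KO and 0.711 in WT (2.61). Of 9 footprints on 7 transporter and channel genes, 0 passed 2-fold, led by the sodium-proton exchanger Slc9a8 with 6.11 in KO and 3.84 in WT (0.67).

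Ubiquitin ligases and conjugating enzymes had 10 footprints on 9 genes, 4 higher and 6 lower in KO. Cbl, which ubiquitinates receptor kinases, had 2.98 in KO and 3.23 in WT (−0.12). Wwp2 had 3.68 in KO and 1.33 in WT (1.47). The tankyrases Tnks and Tnks2, which attach ADP-ribose chains, had 2.43 and 2.79 in KO against 2.59 and 1.38 in WT. Tnpo1, an import receptor, had 1.42 in KO and 4.52 in WT (−1.67). The role groups together cover 110 genes and 140 of the 207 footprints. They were drawn up after the values were seen, and a gene can be in more than 1.

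Genes with a partly held footprint were also counted on lists of genes by function. Over the whole table, 163 of the 2223 genes with a footprint had a partly held one. No list was tested against that share. Of 22 macrophage identity genes, 15 had footprints and 1 had a partly held one (Fcgr1), and of 47 surface receptors 37 and 2 (Cd36, Tlr4). Igf1 and Ccl4 stood for the secreted factors (16 of 27 with footprints), Dusp1 and Nfkbiz for inflammatory signalling (21 of 47), and Mitf and Plekhm3 for lysosome and phagocytosis (26 of 36). Nfkbiz, an atypical NF-κB inhibitor, had 1.48 in KO and 2.82 in WT (−0.93). The growth factor Igf1 had 4.92 in KO and 2.48 in WT (0.99). Acsl4, which activates arachidonic acid, and the glucose transporter Slc2a1 came from the metabolism list (16 of 39), with 3.38 and 2.14 in KO against 2.07 and 2.27 in WT. Chromatin and transcription had 5 genes with 8 partly held footprints (45 of 70 genes with footprints), and RNA-binding proteins 5 genes with 5 (30 of 44). The cell cycle list gave Ccnd1 and Plk2 (11 of 28), membrane traffic Rab1 and Snx30 (41 of 56), the ubiquitin list Cbl (25 of 43), and phosphoinositide signalling Pik3r1 (16 of 31).

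The set was chosen by occupancy, so its footprints are bound to rank high within their genes, and the ranks are a description. The 163 genes carried 810 footprints in all, with a median of 4 and a maximum of 26, and in 149 genes the highest mean occupancy was that of a partly held footprint. In 34 genes it was the only footprint, and 30 genes also had a footprint held by all 6 libraries. In the 126 genes that also had other footprints, the partly held ones supplied a median of 53.8% of the occupancy summed over the gene's footprints and both genotypes. Of the 163, 135 had 1 partly held footprint, 20 had 2 and 8 had 3 or more.

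Partly held footprints of the same gene could differ in direction. Of the 28 genes with several, 16 had values both higher and lower in KO. In 15 the log2 ratios were at least 1 apart, with a median range of 1.19. The whole set was split almost evenly, 106 higher and 101 lower in KO, and no such count was made for other genes. The counts are therefore a description, and nothing is read from them. Lnpep, an aminopeptidase of endosomes, had 1.88 and 2.06 in KO against 4.41 and 4.14 in WT at its outer partly held footprints. The partly held one between them had 4.84 in KO against 1.24 in WT. Pcdh7 had 3.35 in KO and 2.82 in WT at its second footprint and 3.21 in KO and 1.03 in WT at its last. Plekhm3 had 4.66, 4.28 and 1.89 in KO against 2.70, 1.27 and 2.17 in WT. Plagl2 alone of the 8 genes with at least 3 had its partly held values on a single side, all higher in KO.

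**Figure D3:**
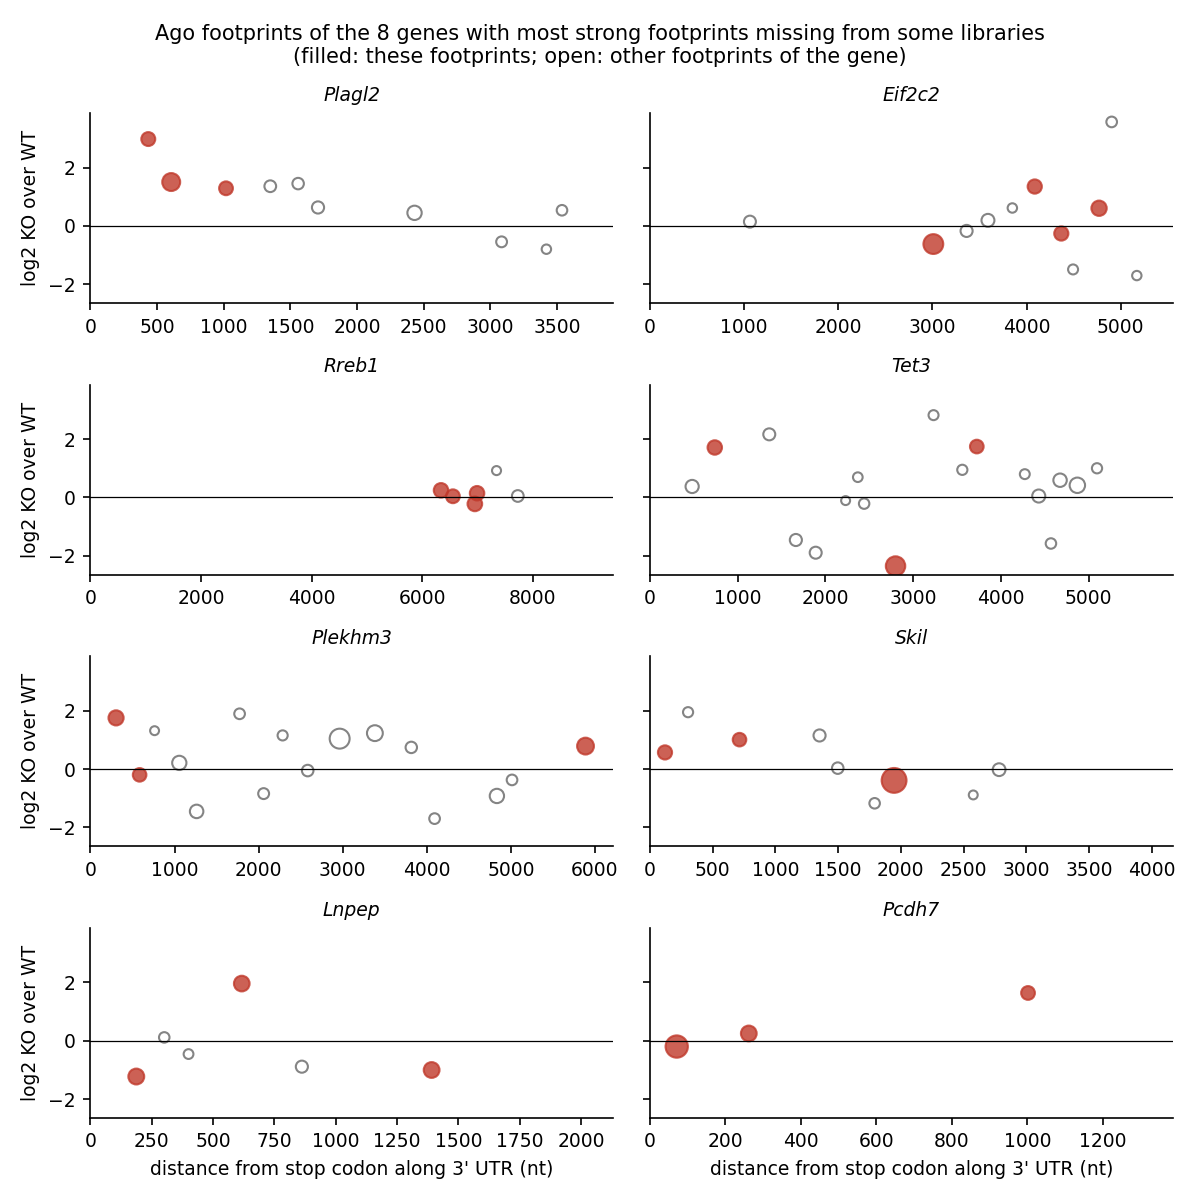
Log2 ratio of KO over WT occupancy (vertical) against distance from the stop codon along the 3′ UTR in nt (horizontal) for the 8 genes with 3 or more partly held footprints. Filled points are partly held footprints and open points the gene's other footprints, with area growing with mean occupancy. The filled Tet3 points run from −2.35 at 2799 nt to 1.75 at 3725 nt, with an open one at 2.82, while the filled Rreb1 points stay between −0.22 and 0.25. Footprints without a position on the 3′ UTR model used (1 of Eif2c2 and 1 partly held one of Plagl2) and 1 of Rreb1 listed at 0 in KO are not drawn.

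Nearly all partly held footprints, 200 of 207, overlapped an annotated 3′ UTR on their strand. The share of 96.6% was that of the file, since the whole table had 96.7%. The rest were the 2 in the Ddx17 intron and 5 outside genes, and 0 overlapped coding sequence. They had a median length of 68 nt (63 to 288), against 65 nt for fully held strong footprints and 72 nt for the table. The shortest length, 63 nt, is the window the authors drew from 30 nt before to 32 nt after the peak of a cluster. It was found for 17.9% of partly held and 27.3% of fully held strong footprints, against 8.64% of the table. The 3′ UTRs of the 195 that could be positioned had a median length of 2868 nt, against 2736 nt for fully held strong footprints and 2408 nt for the table, and the footprints lay a median of 1013 nt from the stop codon.

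The median G+C content of partly held footprints was 41.3% (quartiles 34.9% and 47.7%), against 46.03% for fully held strong footprints, 44.0% for the 3621 weaker footprints under the same library rule and 42.9% for the table. Footprints of AU-rich stretches included those of Tbl1xr1, a subunit of nuclear corepressor complexes, at 20.0%, Mbnl1 at 20.6%, Irf2bp2, a transcriptional corepressor, at 23.4% and the leading Skil footprint at 25.7%. The richest were those of Xpo7 at 62.9% and Ski at 62.5%. Footprints are not replicates of a condition, so no test was made of these medians, and the 3 groups overlapped over most of their range.

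**Figure D4:**
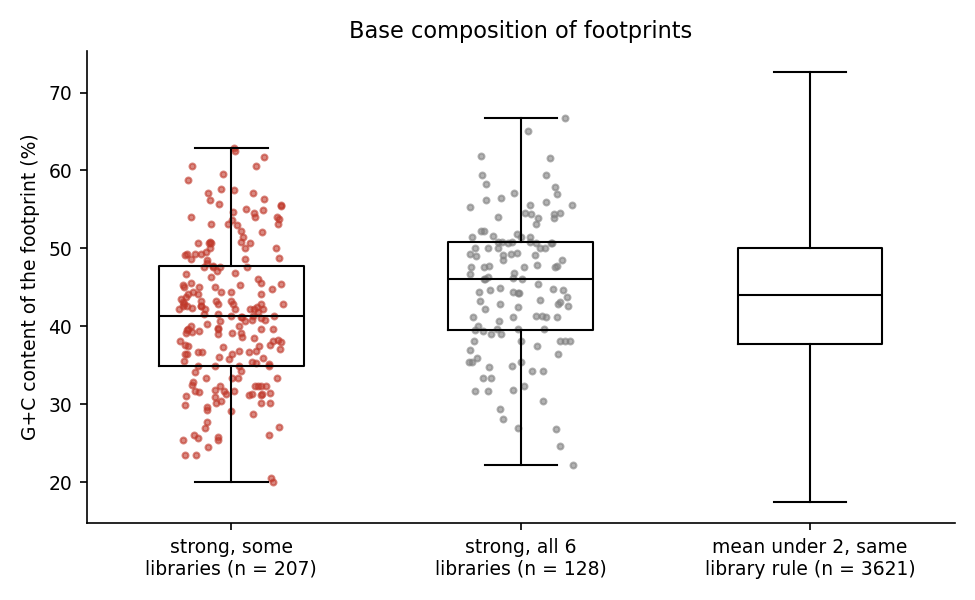
G+C content in % (vertical) of partly held footprints, fully held strong footprints and weaker footprints under the same library rule. Boxes give the median and quartiles, whiskers the full range, and points single footprints of the first 2 groups. The medians are 41.3%, 46.03% and 44.0%.

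Base composition moved with the ratio and with the library counts inside the set. The 207 footprints were split by G+C content into 3 groups of 69. In the group with the lowest content (20.0% to 37.1%) the median log2 ratio was −0.07, with 4 at least 2-fold higher and 16 at least 2-fold lower in KO. In the middle group it was −0.18, with 9 and 13. The group with the highest content (45.0% to 62.9%) had 0.38, with 18 and 4. All 3 KO libraries held 31 footprints of the last group, against 15 and 16 of the others, and a single KO library held 5, against 13 and 12. G+C content and log2 ratio had a Spearman correlation of 0.288 over the 207, as a description of values that share their libraries. Fully held strong footprints had a correlation of 0.390 and all footprints of the table had one of 0.325, so the relation was not particular to the set. Single footprints did not all follow it. Of the highest ratios, Cdk14, Xpo7 and Plagl2 had 57.5%, 62.9% and 53.8% G+C, but Ythdf3 had 46.9% and the chromosome 17 footprint 42.2%. Of the lowest, Hook3 had 42.3%, Lrrc40 43.5% and Rnf111 41.1%, near the set's median of 41.3%, and Tet3 had 38.5% and Mitf 34.8%. The part of base composition in the ratios was not tested.

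Seed matches were somewhat more frequent inside the partly held footprints than beside them. A 7-nt site of any of the 28 families was present in 24.6% (Wilson 95% interval over footprints, 19.3% to 30.9%). In windows of the same length 50 nt away, it was present in 16.9% towards lower genome coordinates and in 21.3% towards higher ones. These sides follow the genome and not the strand, so each mixes windows upstream and downstream in the transcript. The intervals of the 3 shares overlapped. Among fully held strong footprints the shares were 23.4%, 15.6% and 14.1%, and over all 6270 footprints they were 21.2%, 17.4% and 19.0%. The 65 sites fell on 44 genes, 46 of them centred within 15 nt of the footprint's midpoint. For 23 the footprint also held the A opposite base 1 that makes an 8-nt site. An A just past the footprint's edge, as at the Tnrc6a site printed above, was not counted.

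**Figure D5:**
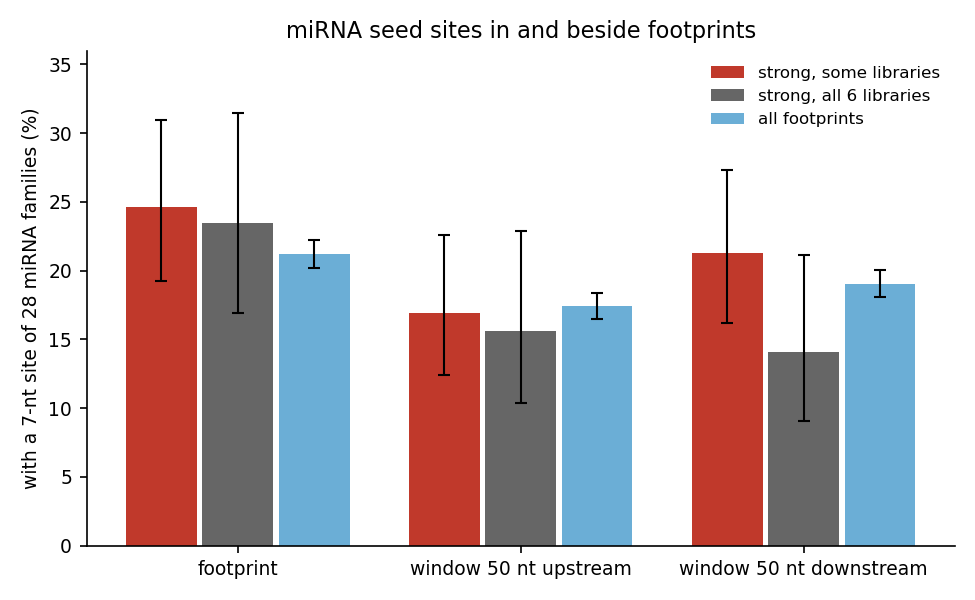
Share of footprints with a 7-nt seed match to any of 28 miRNA families (vertical, in %), with 95% Wilson intervals over footprints. Shares are given inside the footprint and in windows 50 nt to each side. The windows labelled upstream and downstream lie towards lower and higher genome coordinates, whatever the strand. Partly held strong footprints have 24.6% inside, fully held strong ones 23.4% and all footprints 21.2%, and the intervals of the 3 sets overlap.

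The families were unevenly represented. The miR-27 match, ACTGTGA, was found in 9 of 207 partly held footprints (4.35%), against 3 of 128 fully held strong ones (2.34%) and 1.59% of the table. Beside the partly held ones, 3 windows towards lower genome coordinates and 1 towards higher ones held it. The miR-144 match followed with 6, and those of miR-15/16, miR-23 and miR-30 with 5 each. In all, 21 of 28 families had a match and 7 had 0, among them miR-17, miR-223, miR-24 and miR-92/25. Counts this small separate no family from another.

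Some matches shared letters. The miR-27 and miR-144 seeds overlap, so that in Appbp2, a protein that binds the amyloid precursor, in Ell2, an elongation factor, and in Tnpo1 the letters ATACTGTGA hold a match of both, as the lines above show. Tnpo1 held overlapping matches of miR-144, miR-27, miR-181 and miR-23. In Fnbp1l a miR-103 and a miR-15/16 match were shifted by 1 base. In all, 11 footprints held matches of at least 2 families.

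The occupancies of the 9 miR-27 footprints ran in both directions. Jmjd1c led with 5.41 in KO and 3.72 in WT, followed by Ccl4 with 4.14 in KO and 3.03 in WT. Runx1 and Tnpo1 were at least 2-fold lower in KO, and Appbp2 had 2.84 in KO and 3.28 in WT and Ell2 had 2.64 in KO and 3.25 in WT. Plk2, a polo-like kinase, had 3.06 in KO and 1.91 in WT, the calcium pump gene Atp2b1 had 2.68 in KO and 1.71 in WT, and Aff4, a scaffold of the super elongation complex, had 2.66 in KO and 1.46 in WT. These 3 and the leading pair were higher in KO, and the other 4 were lower.

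Each of the 5 footprints with a miR-15/16 match was lower in KO, among them those of Tet3, Fnbp1l, Ski and Rnf111 with log2 ratios of −2.35, −1.31, −0.62 and −2.52. Of the 5, 3 were held by 1 KO library. The match was present in 2.42% of the partly held footprints and in 1.99% of the table. The 1 fully held strong footprint with it, on Rbpj, was higher in KO, with 3.45 in KO and 1.87 in WT (0.88). Ratios of all footprints of the table with this match were not compared, so nothing is read from the shared direction. The miR-30 footprints of Cep350, a centrosomal protein, Plagl2, Tnrc6c, the Golgi tether gene Golga4 and the bicarbonate transporter Slc4a7 had log2 ratios of −0.98, 1.503, 0.45, 0.36 and 0.92. Of miRNAs prominent in macrophages, miR-155 had a match on Rapgef5, Zfc3h1 and a footprint beyond the end of Wee1, and miR-146 on Plekhm3 (4.66 in KO and 2.70 in WT) and Plagl2 (3.89 in KO and 0.493 in WT). Over all families, the 51 footprints with a match had a median log2 ratio of 0.18 and the 156 without one 0.00, against −0.03 and −0.04 over the table.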

How the data were processed

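Ago occupancy is the ratio of footprint signal to RNA-Seq transcript expression that the authors deposited, per the series design text, with 1 value per genotype. Their reads were split by length into mRNA and miRNA pools and aligned to mm9, clusters of at least 8 mRNA reads were formed, and a footprint was taken around each peak. The submitters' processing notes name Bowtie 0.12.8 and bedtools. No source used here states the way the 3 libraries were combined into 1 value, any scaling for library size, or the unit of transcript expression. The deposited number of libraries that held a footprint (0 to 3 per genotype) was the authors' measure of reproducibility, per the series design text. Libraries were grouped by their titles.

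Footprints were placed on GENCODE vM1 by overlap on their strand, 3′ UTR first, and sequences were read with pysam 0.24.0 from NCBIM37, which is mm9 under another name. Log2 ratios of KO over WT used a pseudocount of 0.00161, 50% of the smallest value above 0, and understate the difference of low values. With 1 value per genotype no test of KO against WT was possible, and a 2-fold rule took its place. Intervals of shares are 95% Wilson intervals, and those of medians are 95% order-statistic intervals. Neither treats footprints as replicates of a condition, and neither covers counting error, which needs the unknown depth. The ratio, the 2-fold count and the search for seed matches were tested on simulated data. The intervals and the windows beside footprints were not.

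The footprints, gene lists and miRNA families were chosen with earlier results of these data known. Footprints were named by a rule: the 12 highest means, the 5 highest and 5 lowest ratios, the highest mean in each library pattern, genes with 3 or more, the 2 highest of each gene list, up to 3 per miRNA family and the 3 nearest the threshold on each side. Some footprints that the rule names are not reported here. The groups by role, and other footprints named, were picked with the values in view. The alternatives tried were the occupancy threshold, the pseudocount, sums per gene, leaving out shared values, the length of the seed match and the window. The alternatives of 1 footprint a gene and of 2 KO and 2 WT libraries were added after the data were seen.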

Additional observations from a re-analysis of the deposited data

How the results depend on the processing

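No paired analysis was possible because the table holds 1 combined value per genotype, and for the same reason no library could be left out. A mean occupancy of 1 or more gave 857 footprints, with 168 at least 2-fold higher and 119 at least 2-fold lower in KO. A mean of 4 or more gave 31, with 2 higher and 4 lower, a median log2 ratio of −0.20 and a median G+C content of 42.9%. A pseudocount of 1 left 16 at least 2-fold higher and 22 at least 2-fold lower in KO, against 31 and 33 with the ratios as reported. Without values shared exactly, 26 were at least 2-fold higher and 20 at least 2-fold lower. Among footprints in 2 KO and 2 WT libraries, chosen after the data were seen, the median log2 ratio was 0.25, with 10 higher and 4 lower by 2-fold. The seed share was 10.1% with 8-nt and 53.1% with 6-nt sites, counting only sites wholly inside the footprint. The central 46 nt had a median G+C content of 43.5%. The causes of these moves were not tested, apart from the fewer footprints that a stricter rule leaves and the shorter letters that match more often by construction. The median log2 ratio stayed between 0.00 and 0.14 under the other settings tried. Unknown depth limits each value, since a footprint missing from a library may lie under its read minimum.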

Other observations

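Of the 5 partly held footprints outside genes, 2 lay close together on the X chromosome, at chrX:33906239-33906315 (+) with 4.01 in KO and 1.74 in WT and at chrX:33906675-33906831 (+) with 2.66 in KO and 1.40 in WT. The footprint at chr7:117286200-117286271 (+), with 1.48 in KO and 3.13 in WT, lay 574 nt past the annotated end of Wee1, a kinase that restrains entry into mitosis, and held a miR-155 match. That at chr17:32905731-32905794 (−), with 3.82 in KO and 0.439 in WT, lay 2387 nt past the end of Zfp871. The last, at chr11:6371841-6371911 (−), had 3.20 in KO and 2.45 in WT.

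Short motifs of RNA-binding proteins and of mRNA 3′ ends were counted on the strand of the footprint. The core of AU-rich elements, ATTTA, was present in 36 partly held footprints (17.4%, Wilson 95% interval 12.8% to 23.1%), against 9.38% of fully held strong footprints (5.44% to 15.7%) and 11.9% of all footprints. The Pumilio motif TGTANATA was present in 5.31% of partly held footprints, 4.69% of fully held strong ones and 3.81% of all. The polyadenylation signal AATAAA was present in 8.21%, 3.13% and 7.00%. Partly held footprints had the lower median G+C content of the 2 strong sets, and its part in these counts was not tested. A match is a description of the letters and not a bound site.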
